A study of Mus musculus with 12 samples.

Results

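The comparison described here is the change in transcript levels of Ly6G+ spleen cells of mice over the first week of life, from 2 days to 7 days of age. It rests on 6 of the 12 libraries of the series, the 3 labelled 2 days and the 3 labelled 7 days, with every gene of the count table as a possible member. The other 6 libraries came from mice of 14 days and 6 weeks. Ly6G is a surface protein of mouse neutrophils, and the labels name the cells of every age PMN-MDSC, for polymorphonuclear myeloid-derived suppressor cells. No genotype, strain, sex, treatment or number of mice is given for any group, so as far as the labels say the 4 ages differ in age alone. Y-linked transcripts, given further down, were present at 2 and 7 days and nearly absent at 14 days and 6 weeks. How the Ly6G+ cells were separated is not given in the sources used here. Polyadenylated RNA was sequenced, and the labels leave unsaid whether libraries of one age stem from different animals, so a p-value here reflects library-to-library spread that may be technical.

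Neutrophils are made in the marrow, and in newborn mice also in the spleen and liver, from dividing precursors. As the cells mature, 3 waves of granules are filled in turn. Primary granules hold myeloperoxidase and elastase, secondary granules hold lactoferrin and cathelicidin, and gelatinase granules and surface receptors such as Csf3r and Cxcr2 come last. Neutrophils that restrain T cells are described in newborns, in pregnancy and in tumours, and arginase, prostaglandin E2 and S100A8/A9 are among the mediators named for them. The spleen of a newborn mouse is also a site of red cell formation, which is background to the marker genes of other cells given further down.

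Each of the 6 libraries held 35854257 to 37219166 counts, and 19253 to 20255 genes had at least 1 count. Spearman correlations across genes were 0.993 to 0.995 within the 7-day libraries and 0.932 to 0.953 between the ages. Replicate 2 of the 2-day group stood apart, with 0.971 and 0.98 to its partners against 0.992 between those partners, and its normalization factor was 0.828. Levels are given as CPM, counts per 1000000 of the normalized library size, for each library in the order replicate 1, 2 and 3. Genes with an adjusted p below 0.05 in edgeR's quasi-likelihood test are said to rise or fall. SE is the standard error of a log2 fold change, which is 7 days minus 2 days throughout.

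About as many genes rose as fell, and the genes with the largest changes belonged to few kinds. Of 15494 genes tested, 7546 (48.7%) were called, 3555 (22.9%) higher at 7 days and 3991 (25.8%) lower. Every count of list members below is to be set against these shares. The change passed 2-fold for 1829 rises and 1871 falls, and 8-fold for 144 and 266. In 3440 of the rises and 3740 of the falls the 3 libraries of an age did not overlap those of the other. Most calls thus had no overlap, and a remark below that libraries did not overlap sets no gene apart. The median log2 fold change of all tested genes was -0.01, and it was 0.14 when libraries were scaled by their totals instead of by trimmed means, with 57% of calls higher instead of 47.1%. Without 2-day replicate 2 the calls numbered 8129, 4088 higher and 4041 lower. In bulk RNA, fewer cells of a type and less RNA per cell cannot be told apart, and that holds for all levels below.

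**Figure D1:**
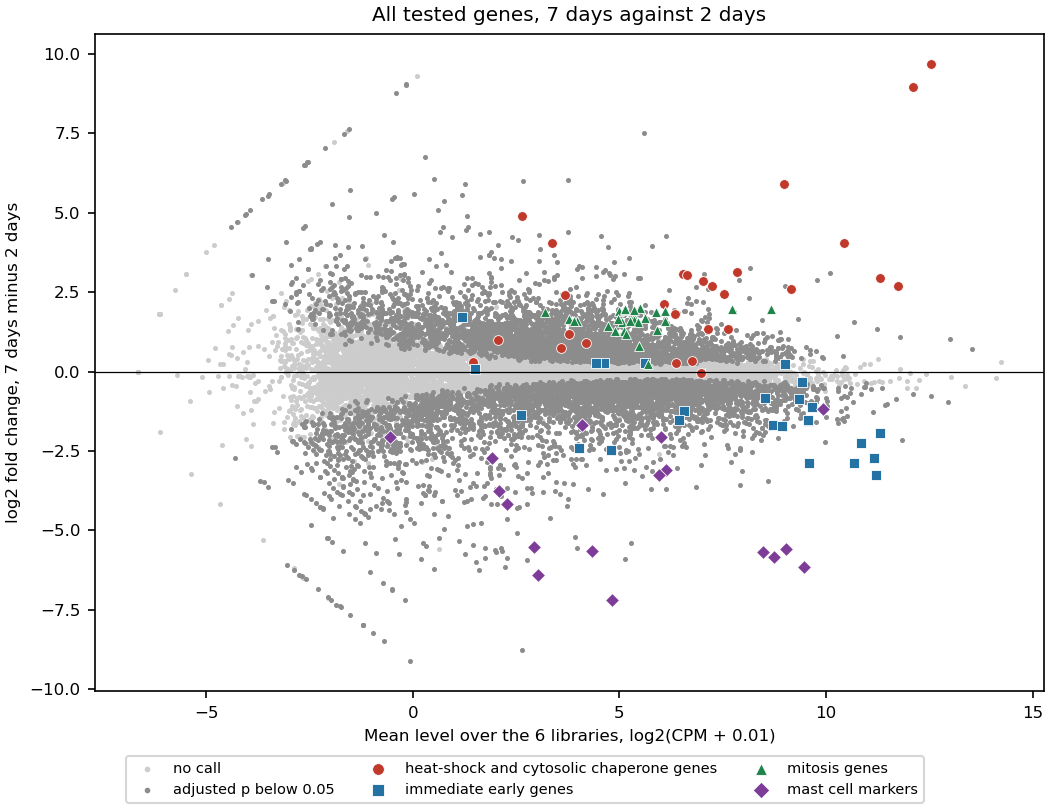
Log2 fold change from 2 days to 7 days (vertical axis) against the mean level over the 6 libraries as log2(CPM + 0.01) for every tested gene, with 4 gene lists marked. Heat-shock genes reach log2 fold changes of 9.69 at high levels, mast cell markers fall as far as -7.18, and most immediate early genes lie below 0.

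By the rule for named genes (the 8 largest changes each way among called genes of at least 20 CPM with no overlap), the largest rises were Hspa1a, Hspa1b, Hspa1l and Hsph1, all heat-shock genes, then Itgad, Kcnj10, Hsp90aa1 and Tmcc2. Itgad, an integrin subunit of splenic macrophages, stood at 7.79, 6.32 and 6.66 CPM at 2 days and at 131, 133 and 133 CPM at 7 days (log2 fold change 4.26, SE 0.37, edgeR adjusted p = 3.71e-06). Kcnj10, a potassium channel, went from 2.32, 2.73 and 2.03 CPM to 43.1, 46.1 and 45.7 CPM (4.25, SE 0.31, edgeR adjusted p = 1.5e-06). The rule required that libraries of these genes did not overlap. Both were highest at 6 weeks, with means of 299.7 and 79.7 CPM. The largest falls were Tpsab1, Tpsb2, Slc6a4, Cma1, Cpa3, Mrgprb1, Mcpt4 and Lipg. All but Lipg, which encodes endothelial lipase, are genes of mast cells.

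The strongest signal at 7 days was that of the heat-shock genes. These encode chaperones, proteins that bind unfolded protein, and the transcription factor HSF1 drives them by binding inverted repeats of the letters GAA in their promoters. Hspa1a and Hspa1b encode the inducible heat-shock protein 70 and lie next to each other on chromosome 17, at chr17:34969190-34972156 and chr17:34956436-34959238 (mm10, GENCODE M21 gene spans, minus strand). Hsph1 (chr5:149614287-149636376, minus strand) encodes HSP110, an exchange factor for heat-shock protein 70. Their promoter windows, 250 bases before to 50 after the RefSeq start on GRCm38.p6, are shown because they hold this repeat, which stands in capitals. The window of Hspa1a is chr17:34972107-34972406 and that of Hsph1 chr5:149636287-149636586, each on the minus strand and written 5′ to 3′.
Hspa1a: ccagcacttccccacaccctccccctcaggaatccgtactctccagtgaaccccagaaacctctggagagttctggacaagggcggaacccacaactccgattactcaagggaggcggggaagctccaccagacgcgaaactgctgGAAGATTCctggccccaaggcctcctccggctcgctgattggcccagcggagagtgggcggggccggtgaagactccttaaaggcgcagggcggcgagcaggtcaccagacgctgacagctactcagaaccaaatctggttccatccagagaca
Hsph1: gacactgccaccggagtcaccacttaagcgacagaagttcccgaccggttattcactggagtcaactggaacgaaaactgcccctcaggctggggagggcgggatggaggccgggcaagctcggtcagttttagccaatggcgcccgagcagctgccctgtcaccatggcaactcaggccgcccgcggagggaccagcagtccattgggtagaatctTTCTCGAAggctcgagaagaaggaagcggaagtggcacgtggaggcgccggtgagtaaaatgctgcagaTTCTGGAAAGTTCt
The capitals mark GAANNTTC or TTCNNGAA, where N is any base, and either form reads alike on both strands. In Hspa1a the match begins 104 bases before the start. Hsph1 has 2 windows, and the one with most matches is shown. Its matches begin 33 bases before the start and, overlapping each other, 36 and 41 bases after it. The window of Hspa1b differs from that of Hspa1a at 4 of 300 positions and holds its match at the same place. Of 24 tested genes of the heat-shock list with a window, 13 (54.2%) held the repeat, against 17% of 27025 genes with a window, or 15.1% of 32851 single windows of that length. The longer form GAANNTTCNNGAA or its other strand, which contains the shorter one, was in 5 of the 24 (20.8%), in 0.662% of all genes with a window and in 0.603% of single windows. The shorter form was searched after the longer had been counted, and a match is a description of letters, not a binding site.

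Of 28 tested heat-shock and cytosolic chaperone genes, 25 rose and none fell (background 22.9% and 25.8%), with a median log2 fold change of 2.52 against -0.01 over all tested genes. Summed over the list, they made up 2250 to 3350 CPM of each 2-day library and 36000 to 41200 CPM of each 7-day library. Hspa1a stood at 9.45, 24.3 and 9.31 CPM at 2 days and at 13370, 10670 and 11470 CPM at 7 days. That is 827-fold higher (log2 fold change 9.69, SE 0.50, edgeR adjusted p = 2.12e-07), with 2-day replicate 2 the highest of its group and all 7-day libraries far above it. Without that replicate the log2 fold change was 10.32. Hspa1b moved from 11.7, 32.7 and 8.63 CPM to 9846, 8045 and 8365 CPM (8.96, SE 0.55, edgeR adjusted p = 5.35e-07), and the value was 9.78 without 2-day replicate 2. The coding sequences of this pair are nearly identical, so how reads were divided between them is uncertain. Hspa1l, their neighbour, rose at a much lower level, from 0.383, 0.691 and 0.164 CPM to 29.5, 25.3 and 25.2 CPM (log2 fold change 6.04, SE 0.43, edgeR adjusted p = 1.15e-06).

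The constitutive and partner chaperones rose as well. Hsp90aa1, the inducible heat-shock protein 90, went from 148, 184 and 145 CPM to 2581, 2370 and 2862 CPM, a 16.4-fold rise (log2 fold change 4.04, SE 0.20, edgeR adjusted p = 2.01e-07). Its constitutive partner Hsp90ab1 went from 692, 536 and 512 CPM to 4597, 4537 and 4315 CPM (2.95, SE 0.15). Hspa8, the constitutive heat-shock protein 70, reached 5978, 5897 and 5938 CPM from 689, 1386 and 674 CPM, and its 2-day replicate 2 was the highest of that age, as for Hspa1a. No 2-day library overlapped a 7-day library for these 3 genes. Hsph1 rose from 10.8, 31.2 and 8.16 CPM to 1024, 932 and 1030 CPM (5.90, SE 0.51, edgeR adjusted p = 3.76e-06), and by 6.74 on the log2 scale without 2-day replicate 2. Stip1, which passes clients from heat-shock protein 70 to 90, and Hspa4l had the 2 smallest p of the list (edgeR adjusted p = 6.56e-08 for each), at 8.77-fold and 6.50-fold higher. The mitochondrial pair Hspd1 and Hspe1 rose with log2 fold changes of 2.45 and 3.04, and the small heat-shock gene Hspb1 from 0.639, 0 and 0.521 CPM to 15.3, 7.73 and 13.2 CPM. The factor itself, Hsf1, moved little beside its targets, from 14.2, 12.7 and 11.2 CPM to 24.9, 22.6 and 24.0 CPM (0.90, SE 0.13, edgeR adjusted p = 0.000124). The 3 members without a call were Dnajb6, Dnaja2 and Hsf2, at -0.03, 0.26 and 0.29. At 14 days and 6 weeks the mean level of Hspa1a was 15.4 and 88.3 CPM, and that of Hsp90aa1 110 and 97.3 CPM, so the 7-day libraries were the highest of all 4 ages for both.

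**Figure D2:**
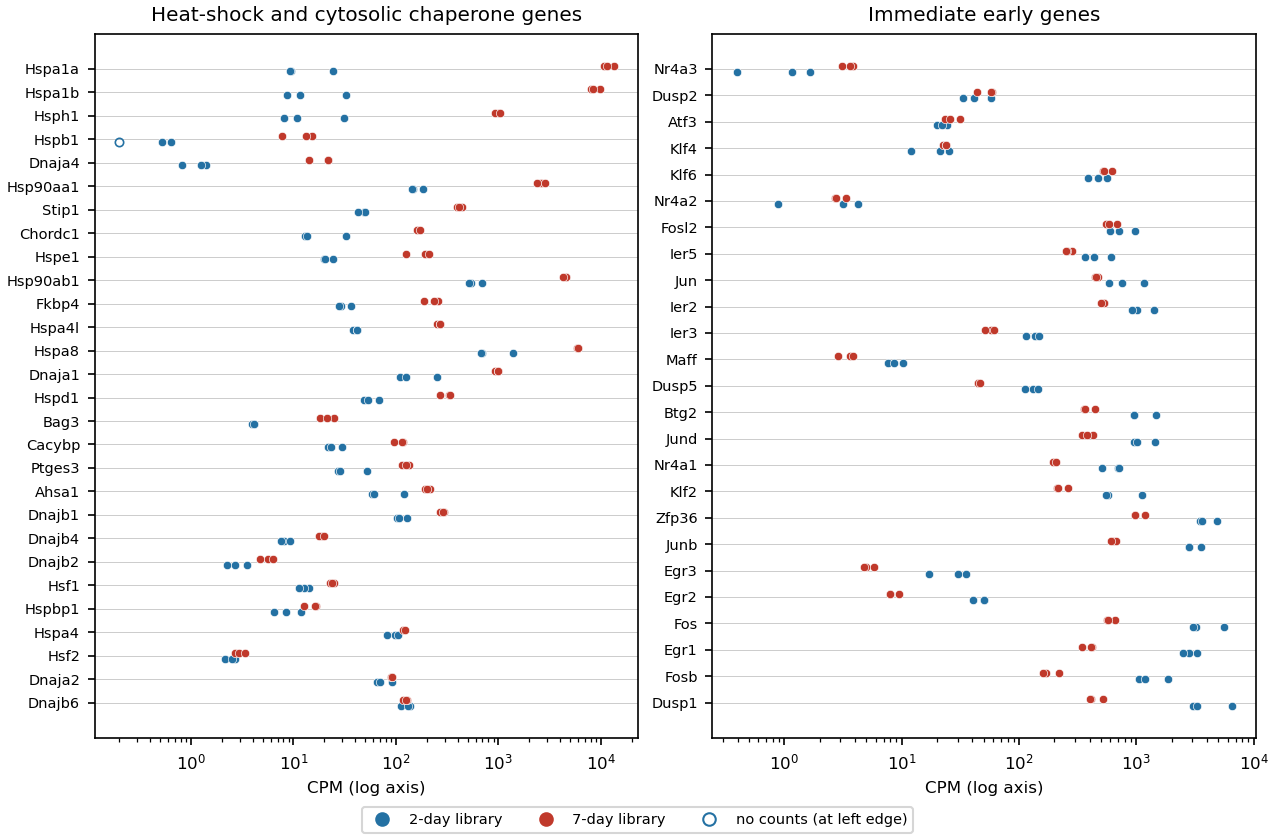
Level in CPM on a log axis of every tested heat-shock and cytosolic chaperone gene (left) and immediate early gene (right) in each 2-day and 7-day library, ordered by fold change. The 7-day points lie to the right of the 2-day points for most chaperone genes and to the left for most immediate early genes. The open circle is the 2-day library with no counts of Hspb1.

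Other folding and degradation genes moved less. All 8 tested subunits of the chaperonin TRiC, a ring that folds actin and tubulin, rose, with a median of 0.97. Its subunit Cct4 went from 64.9, 63.7 and 65.4 CPM to 154, 131 and 154 CPM (log2 fold change 1.18, SE 0.09, edgeR adjusted p = 2.25e-06), and Cct5 from 85.5, 72.5 and 76.8 CPM to 184, 164 and 180 CPM (1.17, SE 0.10). Neither overlapped between the ages. Of 31 proteasome subunits 7 rose and 5 fell, a share below the background of 48.7%, with a median of 0.04 that was -0.04 without 2-day replicate 2. The 5 falls became 0 with library totals as the scale, and 3 or 2 when a 2-day or 7-day library other than 2-day replicate 2, or 14-day replicate 2, was left out. The 7 rises became 4 without 7-day replicate 3. Of 22 genes of the unfolded protein response, which answers to unfolded protein in the endoplasmic reticulum, 12 rose and 2 fell. With 63.6% called against the same 48.7%, these genes had a median of 0.65. The chaperones of that compartment led them, Hsp90b1 from 156, 204 and 157 CPM to 515, 534 and 551 CPM (1.63, SE 0.14, edgeR adjusted p = 3.33e-06) and Canx from 95.0, 87.3 and 87.4 CPM to 233, 232 and 237 CPM (1.38, SE 0.11). Atf4, Ddit3 and Trib3, transcription factors and a target of the arm that slows translation, had no call, at 0.04, 0.22 and 0.40.

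Immediate early genes went the other way. They encode transcription factors and phosphatases whose transcripts appear within minutes of a stimulus and decay fast. Of 25 tested, 18 fell and 1 rose, 76% called against 48.7% of all tested genes, with a median log2 fold change of -1.53. The sum of the list went from 23000 to 35500 CPM per 2-day library to 6890 to 7570 CPM at 7 days. Fos stood at 3210, 5606 and 3036 CPM at 2 days and at 558, 662 and 578 CPM at 7 days (log2 fold change -2.72, SE 0.25, edgeR adjusted p = 5.06e-06). Dusp1, a phosphatase of the MAP kinases, fell 9.59-fold, from 3011, 6477 and 3285 CPM to 409, 521 and 403 CPM. For both, 2-day replicate 2 was the highest library and all 2-day libraries lay above all 7-day libraries. Fosb fell 7.41-fold (-2.89, SE 0.22, edgeR adjusted p = 1.8e-06) and Egr2, of a zinc finger family, 5.598-fold, from 50.6, 40.8 and 50.7 CPM to 7.99, 7.89 and 9.50 CPM. Klf4, Klf6, Atf3 and Dusp2 had no call, at 0.26, 0.23, 0.27 and 0.27. The rise was that of Nr4a3, from 1.15, 0.395 and 1.64 CPM to 3.87, 3.07 and 3.60 CPM, and it lost its call without replicate 1 or 2 of the 2-day group or replicate 1 or 3 of the 7-day group.

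Genes that glucocorticoid hormones induce fell in 8 of 12 tested, with 1 rise and a median of -1.09. That is 75% called against 48.7% of all tested genes. Fkbp5, a co-chaperone of the glucocorticoid receptor, stood at 185, 287 and 253 CPM at 2 days and at 58.0, 61.3 and 53.2 CPM at 7 days (log2 fold change -2.07, SE 0.15, edgeR adjusted p = 1.35e-06). Per1, a clock gene that the receptor also induces, fell from 399, 412 and 390 CPM to 132, 156 and 149 CPM (-1.46, SE 0.15, edgeR adjusted p = 1.17e-05), with no overlap. Zbtb16 and Errfi1 fell by 2.57 and 2.46 on the log2 scale. The rise was that of Cd163, which is also a marker of macrophages. Of 16 circadian clock genes 5 rose and 2 fell, 43.8% called against 48.7% of all tested genes, with a median of 0.19 that was 0.42 without 2-day replicate 2. Arntl, which encodes BMAL1, rose from 4.42, 1.88 and 2.33 CPM to 8.04, 7.65 and 7.94 CPM (1.45, SE 0.28, edgeR adjusted p = 0.00118), and Hlf from 4.26, 4.81 and 4.19 CPM to 17.0, 15.8 and 15.8 CPM (1.87, SE 0.14). Clock, Cry1, Per2 and Dbp had no call. The time of day at which mice were killed is not given in the sources used here.

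Genes that type I interferon induces were lower at 7 days. Interferon binds the receptor IFNAR1/IFNAR2, and the kinases JAK1 and TYK2 then activate a transcription factor complex that binds an element with repeated GAAA. The promoter window of Ifit3 (chr19:34583279-34583578, plus strand, GRCm38.p6, RefSeq start) is shown because it holds this element as TTTCNNTTTC, its other strand, in capitals, beginning 156 and 122 bases before the start.
Ifit3: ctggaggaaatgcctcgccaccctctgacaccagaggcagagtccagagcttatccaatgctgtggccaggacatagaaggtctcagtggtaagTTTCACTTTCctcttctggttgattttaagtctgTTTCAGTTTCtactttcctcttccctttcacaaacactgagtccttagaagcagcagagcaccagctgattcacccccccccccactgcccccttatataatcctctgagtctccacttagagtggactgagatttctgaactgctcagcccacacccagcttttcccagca
The letters GAAANNGAAA or TTTCNNTTTC were in 3.99% of 27025 genes with a window (3.44% of 32851 single windows). They were in 24 of 37 tested genes of the interferon-stimulated list with a window (64.9%). Of these 37, 16 of the 20 that fell (80%) and 2 of the 3 that rose (66.7%) held them. This is again a count of letters. Of 46 tested interferon-stimulated genes, 26 fell and 3 rose, 63% called against 48.7% of all tested genes. The median of -0.82 was -0.59 without 2-day replicate 2. Ifit3, which binds foreign RNA together with Ifit1, went from 13.8, 24.4 and 31.1 CPM to 1.59, 3.04 and 1.46 CPM, 11.4-fold lower (log2 fold change -3.51, SE 0.37, edgeR adjusted p = 1.52e-05). Its near copy Ifit3b fell too (-4.27), and reads may have been divided between them. Irf7, the factor that amplifies interferon production, stood at 103, 154 and 117 CPM and then at 37.1, 43.0 and 33.96 CPM (-1.71, SE 0.16, edgeR adjusted p = 6.96e-06). Slfn5 fell from 38.2, 74.6 and 60.7 CPM to 6.79, 9.69 and 8.02 CPM, and Xaf1 from 13.6, 16.3 and 15.4 CPM to 4.17, 4.42 and 3.60 CPM. No 2-day library overlapped a 7-day library for these 4 named genes.

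The fall did not take in every member of the interferon list. Irf9, Bst2, Gbp2 and Sp100 had no call, with log2 fold changes of -0.11, 0.13, -0.05 and -0.04. The 3 rises were Gbp3, Ifi47 and Cxcl10, at 1.44, 1.05 and 0.96, and without 2-day replicate 2 they numbered 6. At 14 days and 6 weeks Ifit3 averaged 13.2 and 89.5 CPM and Irf7 107 and 266 CPM, so the 7-day level was the lowest of the 4 ages for both. Of 18 genes of the interferon and interleukin 10 receptors and their proximal signalling, 11 fell and 1 rose. That is 66.7% called against 48.7% of all tested genes, and the median of -0.67 was -0.45 without 2-day replicate 2. Ifnar1 went from 98.3, 129 and 117 CPM to 64.9, 75.3 and 64.8 CPM (-0.75, SE 0.12, edgeR adjusted p = 0.000377), and its partner chain Ifnar2 from 114, 131 and 142 CPM to 200, 204 and 196 CPM (0.63, SE 0.11, edgeR adjusted p = 0.000541). These 2 chains of the same receptor thus moved apart, without overlap between the ages. Socs3, the inhibitor of JAK kinases induced by interleukin 6 and G-CSF, fell 7.23-fold, from 361, 325 and 417 CPM to 49.0, 58.3 and 45.3 CPM. Jak3 fell 2.16-fold, while Jak1, Stat3, Stat6 and Il10rb had no call.

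Among 16 genes of class I antigen presentation, 6 fell and 3 rose, 56.2% called against 48.7% of all tested genes. Their median was -0.20. Those that fell included the peptide pump and the immunoproteasome, subunits Tap1 (146, 129 and 149 CPM to 56.0, 51.2 and 50.7 CPM, log2 fold change -1.42, SE 0.11, edgeR adjusted p = 1.7e-06), Tap2 (-0.80), Psmb9 (-0.82) and Psmb8 (-0.60). The heavy chains H2-D1 and H2-K1 had no call, at -0.30 and 0.18. The light chain B2m rose, from 443, 725 and 564 CPM to 798, 735 and 806 CPM (0.43, SE 0.17, edgeR adjusted p = 0.0455), with all 7-day libraries above the 2-day libraries but replicate 2 close to them. The others that rose were Tapbpl and H2-Q7, and 1 of the 3 rises was left without 2-day replicate 3. Reads of class I heavy chains may be shared between near-identical genes.

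Inflammatory cytokines and chemokines were mostly lower at 7 days, with 78.3% called against 48.7% of all tested genes. Of 23 tested, 16 fell and 2 rose, with a median of -1.43. Their sum was 2290 to 3610 CPM at 2 days and 828 to 1020 CPM at 7 days. Il1b, which encodes interleukin 1 beta, stood at 260, 577 and 379 CPM and then at 64.4, 92.3 and 72.1 CPM (log2 fold change -2.41, SE 0.32, edgeR adjusted p = 9.07e-05). The neutrophil attractants Cxcl2 and Cxcl3 fell 12.01-fold and 15.2-fold, Cxcl3 from 6.82, 4.48 and 7.64 CPM to 0.392, 0.397 and 0.453 CPM (-3.92, SE 0.36, edgeR adjusted p = 6.08e-06). Ccl9 fell 8.22-fold, from 58.8, 52.8 and 73.6 CPM to 7.23, 9.26 and 6.03 CPM. None of these overlapped between the ages. Il18 and Il1a rose, by 1.46 and 1.86 on the log2 scale, at levels of at most 15.9 CPM. Il10 was at 0.35 CPM and 0.378 CPM with no call. Il1b was higher again at 14 days, at a mean of 1944 CPM.

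Of 20 NF-kB subunits and regulators, 8 fell and 3 rose, 55% called against 48.7% of all tested genes, with a median of -0.28. Ikbkg and Chuk, subunits of the kinase that releases NF-kB, had the smallest p, with Ikbkg at 59.0, 68.9 and 66.1 CPM and then 28.7, 36.3 and 31.0 CPM (log2 fold change -1.01, SE 0.11, edgeR adjusted p = 1.97e-05). Rela fell (-0.54), Rel rose (0.80), and Nfkb1, Nfkb2 and Relb had no call. Of 27 pattern recognition receptors and inflammasome genes 14 fell and 2 rose, 59.3% called, with a median of -0.65. Cd14, the co-receptor for lipopolysaccharide, went from 500, 468 and 539 CPM to 77.2, 89.6 and 92.0 CPM, 5.82-fold lower (-2.54, SE 0.26, edgeR adjusted p = 1.33e-05). Gsdmd, the pore protein of pyroptosis, went from 136, 232 and 154 CPM to 55.4, 63.2 and 59.7 CPM (-1.55, SE 0.18). Myd88, the adaptor of most Toll-like receptors, fell (-1.45), while Tlr2, Tlr4, Tlr5, Tlr7 and Tlr8 had no call. The 2 rises were Cgas and Tlr9, and 1 was left without 2-day replicate 3 or any 7-day library, or with the replicate block. Without 2-day replicate 2 the falls in this list numbered 11 and its median was -0.37.

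Of 25 genes named as mediators of suppression by myeloid cells, 15 fell and 3 rose, 72% called against 48.7% of all tested genes. The median of -0.75 was -0.58 without 2-day replicate 2. Arg1, arginase, stood at 2.32, 4.58 and 2.71 CPM at 2 days and at 0.417, 0.635 and 0.503 CPM at 7 days (log2 fold change -2.62, SE 0.49, edgeR adjusted p = 0.000992). Nos2, the inducible nitric oxide synthase, went from 3.73, 3.29 and 5.23 CPM to 0.735, 2.09 and 0.830 CPM (-1.75, SE 0.56, edgeR adjusted p = 0.0209), and the call was lost without 2-day replicate 3 (-1.48), 7-day replicate 1 (-1.44) or 7-day replicate 3 (-1.49), while without 7-day replicate 2 the value was -2.37. Both were thus rare transcripts at both ages. Ptgs2, cyclooxygenase 2 of prostaglandin synthesis, fell from 92.1, 149 and 118 CPM to 23.2, 37.4 and 31.2 CPM (-1.97, SE 0.31, edgeR adjusted p = 3e-04), and was at 665.5 CPM on average at 14 days. Il4ra fell 3.46-fold, Cebpb 3.40-fold and Thbs1, thrombospondin 1, from 11090, 9088 and 11110 CPM to 4353, 6414 and 5285 CPM (-0.96, SE 0.20, edgeR adjusted p = 0.00208). Wfdc17 fell 7.75-fold, from 16.0, 60.7 and 19.8 CPM to 3.82, 4.95 and 3.65 CPM (log2 fold change -2.95), and leaving out 2-day replicate 2 gave -2.09.

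S100a8 and S100a9, the abundant calcium-binding pair of neutrophils, had no call. S100a8 stood at 9213, 16330 and 11010 CPM and then at 8905, 8697 and 9321 CPM (log2 fold change -0.44, SE 0.21, edgeR adjusted p = 0.0986), and S100a9 at 14400, 24840 and 17620 CPM and then at 16300, 16510 and 17050 CPM (-0.19, SE 0.21). In both, 2-day replicate 2 was the highest of the 6 libraries, and without it S100a9 was at 0.08. S100a8 passed the threshold with DESeq2 (-0.43) and without 2-day replicate 1 (-0.54). The 3 suppressive mediators that rose were Olr1, which encodes the lectin-type receptor LOX-1 used to mark such cells in humans, Nt5e and Vegfa. Olr1 went from 7.25, 8 and 8.46 CPM to 31.4, 35.6 and 33.5 CPM (2.08, SE 0.16, edgeR adjusted p = 1.55e-06), with all 7-day libraries far above. Cd274, which encodes PD-L1, fell by 0.50 on the log2 scale.

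The sorted marker Ly6g itself did not separate the ages, at 74.9, 112 and 94.4 CPM and then 94.5, 116 and 99.6 CPM (log2 fold change 0.14, SE 0.15, edgeR adjusted p = 0.451), and it passed the threshold with library totals as the scale (0.31). Of 14 primary granule genes 5 rose and 5 fell, 71.4% called against 48.7% of all tested genes. The median of -0.12 was -0.41 without 2-day replicate 2. Mpo, myeloperoxidase, stood at 279, 64.4 and 167 CPM at 2 days and 182, 119 and 123 CPM at 7 days (-0.27, SE 0.47), and Elane, neutrophil elastase, at 26.4, 6.68 and 15.3 CPM and then 35.7, 18.6 and 22 CPM (0.65, SE 0.46). Neither had a call, both were lowest in 2-day replicate 2, and without 2-day replicate 1 Mpo was at 0.34 and Elane passed at 1.26. Srgn, the proteoglycan that packs granule proteins, fell 4.65-fold, from 1288, 1826 and 1830 CPM to 317, 415 and 333 CPM, and Cd63 fell 2.10-fold. Lyz2, lysozyme, rose from 3736, 7985 and 4564 CPM to 10610, 11610 and 11130 CPM (1.03, SE 0.24, edgeR adjusted p = 0.0039). The 5 falls became 3 without 2-day replicate 1 or 7-day replicate 2, and 2 without 2-day replicate 3 or 7-day replicate 3.

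Of 19 secondary granule genes 5 rose and 6 fell, shares near the 22.9% and 25.8% of all tested genes. The falls numbered 4 without 2-day replicate 2 and in several other fits, and the median of -0.08 changed sign with library totals as the scale. Ltf, lactoferrin, stood at 9912, 7907 and 9193 CPM and then at 13840, 16720 and 13360 CPM (log2 fold change 0.70, SE 0.21, edgeR adjusted p = 0.0165), and the call was lost without 7-day replicate 2 (0.60). Camp, cathelicidin, rose from 2263, 2071 and 2454 CPM to 4983, 4366 and 5023 CPM (1.08, SE 0.16, edgeR adjusted p = 0.000154), and Chil3 from 1294, 1332 and 1478 CPM to 3339, 3355 and 3581 CPM (1.32, SE 0.17). All 3 were higher in every 7-day library than in any 2-day library. Ngp, among the most abundant transcripts, was at 19310, 13410 and 18960 CPM and then 20320, 23330 and 19790 CPM, with no call (0.30, SE 0.23). Olfm4, which marks part of the neutrophils, fell from 2770, 3601 and 3131 CPM to 1121, 1618 and 1173 CPM (-1.28, SE 0.16, edgeR adjusted p = 6.14e-05), and Mmp8 and Hp fell by 0.86 and 0.95 on the log2 scale. Without 7-day replicate 2 the rises numbered 3.

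Genes of gelatinase granules, receptors and the mature neutrophil fell or had no call. Of 28 tested, 18 fell and 0 rose (background 25.8% and 22.9%), with a median of -0.76. The rises became 1 without 2-day replicate 1 or 2-day replicate 2, and 2 with library totals as the scale. Without 2-day replicate 2 the falls numbered 15 and the median was -0.48, and the fewest falls in any alternative were 13. Il1r2, the decoy receptor for interleukin 1, fell 10.8-fold, from 571, 731 and 829 CPM to 53.5, 80.8 and 62.1 CPM (log2 fold change -3.44, SE 0.24, edgeR adjusted p = 1.06e-06). Retnlg fell 4.50-fold, from 4159, 7793 and 6128 CPM to 1200, 1570 and 1249 CPM (-2.17, SE 0.27). Csf3r, the G-CSF receptor, went from 1152, 3440 and 1568 CPM to 597, 828 and 665 CPM (-1.56, SE 0.36, edgeR adjusted p = 0.00336), and without 2-day replicate 2, its highest library, the value was -0.94. In these 3 genes each 2-day library lay above each 7-day library. Cxcr2, the receptor by which neutrophils leave the marrow, did overlap, at 492, 1335 and 747 CPM against 394, 529 and 406 CPM (-0.95, SE 0.29, edgeR adjusted p = 0.0175). Its call was lost without 2-day replicate 2 (-0.46), 7-day replicate 1 (-0.82) or 7-day replicate 3 (-0.83), and in a fit of the 6 libraries alone (-0.92). Cxcr4, Fpr1, Ltb4r1 and Fcgr3 had no call.

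**Figure D3:**
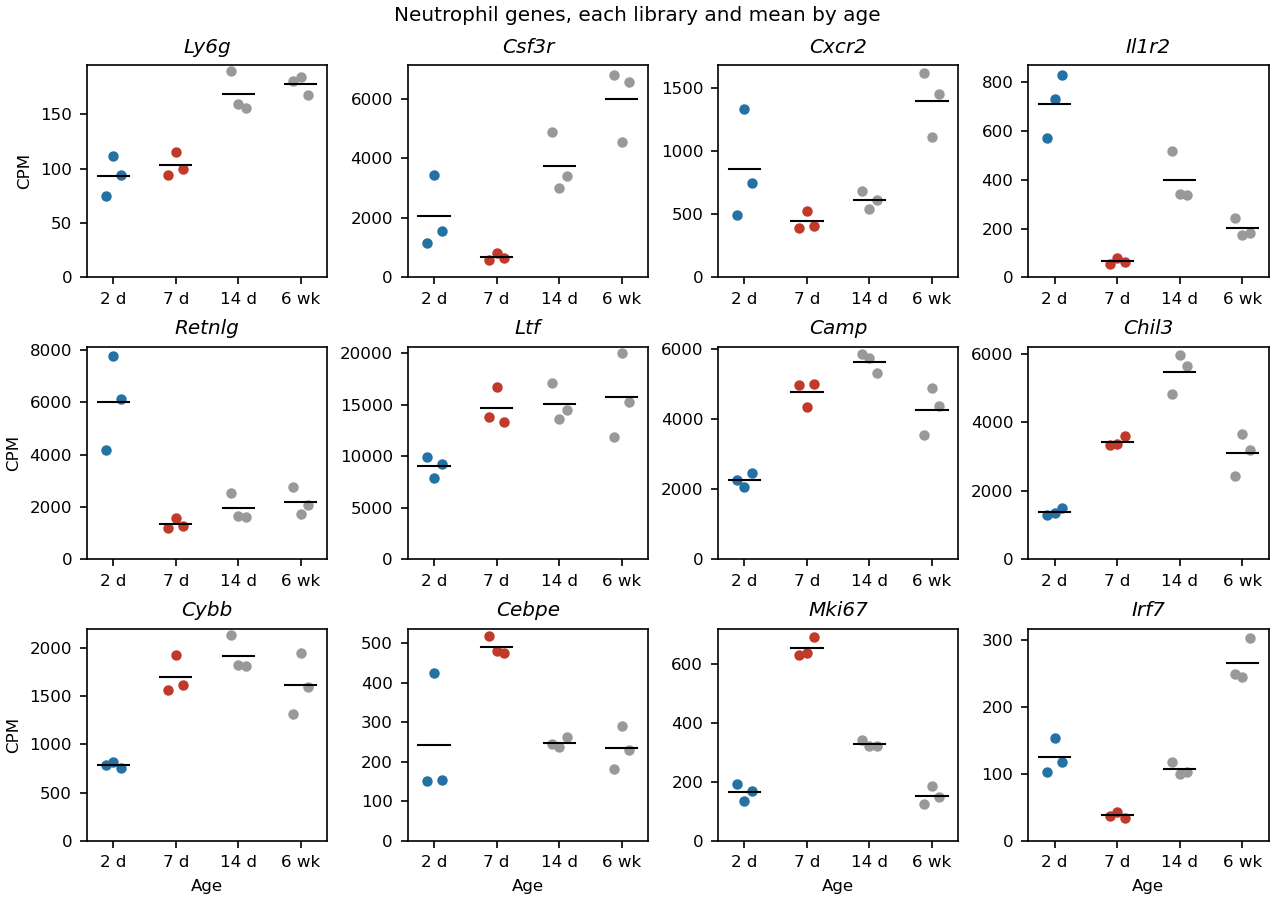
Level in CPM of 12 genes in each library at 2 days, 7 days, 14 days and 6 weeks, with the mean of the 3 libraries as a line. Csf3r, Il1r2 and Irf7 are lowest at 7 days, Mki67 and Cebpe are highest at 7 days, and Ly6g overlaps between 2 and 7 days.

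Stefin A genes, a cluster on chromosome 16 whose products inhibit cathepsins, fell in 5 of 9 tested. That is 55.6% called against 48.7% of all tested genes (25.8% lower), with a median of -0.68 that was -0.30 without 2-day replicate 2. Stfa2 went from 2542, 5116 and 3820 CPM to 1757, 1898 and 1955 CPM (log2 fold change -1.03, SE 0.24, edgeR adjusted p = 0.00399), and 2010005H15Rik from 1449, 2322 and 1901 CPM to 552, 630 and 669 CPM (-1.62, SE 0.20). The falls numbered 3 without 7-day replicate 1, a rise was called without 2-day replicate 2, and the members are so alike that their reads may be divided wrongly. Among 9 genes of the NADPH oxidase, the source of the oxidative burst, Cybb and Hvcn1 rose and 2 fell, shares near those of all tested genes. Cybb, the catalytic subunit, went from 782, 820 and 753 CPM to 1557, 1922 and 1614 CPM (1.11, SE 0.16, edgeR adjusted p = 0.000155), and the proton channel Hvcn1 from 72.3, 56.2 and 56.7 CPM to 190, 191 and 189 CPM (1.62, SE 0.15, edgeR adjusted p = 4.84e-06). The 2 falls, Ncf4 and Rac2, were lost without 7-day replicate 1 or 7-day replicate 3. Of 22 antioxidant genes 10 rose and 4 fell, 63.6% called against the same 48.7%, with a median of 0.22. Gsr, glutathione reductase, fell from 1476, 2081 and 1867 CPM to 590, 756 and 577 CPM (-1.50, SE 0.19), Srxn1 and Nqo1 fell by 2.04 and 2.00 on the log2 scale, and Prdx2, Hmox1, Cat and Prdx6 rose by 1.38, 1.14, 1.06 and 1.05.

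Of 20 regulators of the granulocyte lineage and of progenitors, 6 rose and 8 fell, 70% called against 48.7% of all tested genes. The median of -0.07 was 0.19 without 2-day replicate 2 and 0.09 with library totals. Cebpe, needed for secondary granules, stood at 151, 424 and 155 CPM and then at 518, 480 and 476 CPM (log2 fold change 1.01, SE 0.33, edgeR adjusted p = 0.0226). Its 2-day replicate 2 was far above its partners, the call was lost without 2-day replicate 3 (0.85) and in the 6 libraries alone (1.05), and without 2-day replicate 2 the value was 1.71. Myc, Myb, Irf8, Sox4 and Runx1 rose, by 1.65, 1.16, 1.23, 1.09 and 0.51. Klf13 fell from 499, 636 and 533 CPM to 166, 200 and 165 CPM (-1.65, SE 0.13, edgeR adjusted p = 1.82e-06) and Id2 from 320, 336 and 403 CPM to 106, 111 and 105 CPM (-1.72, SE 0.13). Gata2 and Kit, also mast cell genes, fell by 3.10 and 2.05, and Cd34 by 1.59. Cebpa, Cebpd, Gfi1 and Flt3 had no call.

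Genes of the cell cycle rose together. Of 30 DNA replication genes 28 rose and 0 fell, with a median of 1.23, and of 30 mitosis genes 29 rose and 0 fell, with a median of 1.63. The mitosis genes summed to 599 to 1000 CPM in the 2-day libraries and to 2560 to 2650 CPM in the 7-day libraries. Mki67, the marker of cycling cells, went from 193, 135 and 169 CPM to 631, 636 and 690 CPM, 3.93-fold higher (log2 fold change 1.97, SE 0.16, edgeR adjusted p = 2.79e-06). Nusap1, a spindle protein, went from 21.1, 13.0 and 19.8 CPM to 72.0, 71.1 and 72.9 CPM (2.00, SE 0.19). Ccne2 and Cdc6, which start replication, rose 3.50-fold and 3.32-fold, Ccne2 from 5.87, 5.73 and 5.92 CPM to 22.01, 17.0 and 22.4 CPM. No library overlapped for these 4 genes, and 2-day replicate 2 was the lowest for each. The members without a call were Gins2, Tk1 and Kif23. Erythroid markers, given further down, rose in the same libraries, from 561 to 1130 CPM in sum to 4220 to 6990 CPM, and their part in the rise of cell cycle genes was not tested. Mki67 averaged 328 CPM at 14 days and 153 CPM at 6 weeks.

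Cytosolic ribosomal protein genes rose in 24 of 29 tested with 0 falls, by less, with a median of 0.59. Rps19 went from 197, 148 and 163 CPM to 369, 269 and 323 CPM (log2 fold change 0.92, SE 0.17, edgeR adjusted p = 0.001) and Rps3 from 443, 414 and 421 CPM to 776, 584 and 756 CPM (0.73, SE 0.13), with 7-day replicate 2 the lowest of its age in both. That library also had the lowest sum of erythroid markers at 7 days, 4220 CPM against 6440 and 6990 CPM. The part of erythroid transcripts in the rise of ribosomal protein genes was not tested. Of 37 nuclear genes of oxidative phosphorylation 6 rose, 3 fell and 28 had no call, 24.3% called against 48.7% of all tested genes. The rises became 10 without 2-day replicate 1 and 11 without 7-day replicate 2, and the falls 5 without 2-day replicate 2 and 1 without any other 2-day library, 7-day replicate 2, 7-day replicate 3 or 14-day replicate 2. Cycs, cytochrome c, rose from 6.49, 6.12 and 5.70 CPM to 14.2, 11.9 and 16.9 CPM (1.23, SE 0.18), and Sdhb fell from 84.2, 83.1 and 92.9 CPM to 54.3, 49.3 and 49.5 CPM (-0.77, SE 0.09, edgeR adjusted p = 4.71e-05).

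In glycolysis 8 of 20 genes fell and 2 rose, 50% called against 48.7% of all tested genes (22.9% higher and 25.8% lower). The median of -0.04 changed sign with library totals. The transporter Slc2a1 fell from 133, 156 and 179 CPM to 45.7, 54.4 and 46.3 CPM (log2 fold change -1.68, SE 0.22, edgeR adjusted p = 8.12e-05) and Slc2a3 and the lactate exporter Slc16a3 by 1.09 and 1.00, while Ldha, Pgk1, Gapdh and Tpi1 had no call. The 2 rises became 4 without 2-day replicate 2 and 1 without 2-day replicate 3 or 7-day replicate 2. Cholesterol synthesis and uptake genes fell in 10 of 23 tested with 0 rises, 43.5% called against the same 48.7%, and a median of -0.18. The falls became 6 without 2-day replicate 1 and 5 without 7-day replicate 3, and up to 2 rises appeared in other fits, 2 of them without 2-day replicate 2 and 1 without 14-day replicate 2. Among 25 genes of lipid uptake and fatty acid use 6 rose and 9 fell, 60% called. Pparg, the lipid-sensing nuclear receptor, rose from 2.81, 2.14 and 1.75 CPM to 10.7, 11.9 and 10.6 CPM (2.30, SE 0.17, edgeR adjusted p = 1.27e-06), Lpl and Cd36 rose by 1.80 and 1.56, and the fatty acid transporter Slc27a2 fell by 3.63. The falls became 5 without 7-day replicate 1 or 7-day replicate 3.

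Of 17 hypoxia-responsive genes 5 rose and 5 fell, shares near the 22.9% and 25.8% of all tested genes, and the falls became 3 without 2-day replicate 3. P4ha1, a collagen prolyl hydroxylase, rose from 7.66, 16.1 and 7.29 CPM to 81.2, 76.3 and 80.5 CPM (log2 fold change 2.94, SE 0.26, edgeR adjusted p = 3.8e-06), and Ero1l rose 2.34-fold, while Hif1a itself fell from 69.6, 55.8 and 96.9 CPM to 36.5, 38.0 and 37.6 CPM (-0.99, SE 0.22). Of 12 Bcl2 family genes 7 fell and 0 rose, 58.3% called against 48.7% of all tested genes. Mcl1, on which neutrophil survival depends, went from 1483, 2215 and 1815 CPM to 735, 864 and 741 CPM (-1.24, SE 0.23, edgeR adjusted p = 0.000789), and the death-promoting Bmf from 27.2, 48.7 and 30.2 CPM to 15.1, 14.9 and 14.7 CPM (-1.25, SE 0.18). The 7 falls became 4 without 2-day replicate 2 or 2-day replicate 3, 3 without 7-day replicate 1 and 2 without 7-day replicate 3, with 1 rise without 2-day replicate 2. Of 14 replication-dependent histone genes 4 fell and 1 rose, 35.7% called against 48.7% of all tested genes, with Hist1h1c 4.12-fold lower and Hist2h2aa1 5.52-fold lower. The falls became 2 without 2-day replicate 2, 7-day replicate 1 or 7-day replicate 3. Most transcripts of these genes carry no poly(A) tail, so a polyadenylated library holds few of them.

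Fetal-type and imprinted genes fell in 14 of 19 tested, with 1 rise, 78.9% called against 48.7% of all tested genes. The median of the list was -1.25, and most members were at low levels. Igf2, the fetal growth factor, stood at 6.82, 2.24 and 9.04 CPM and then at 0.515, 0.556 and 0.402 CPM (log2 fold change -3.61, SE 0.45, edgeR adjusted p = 4.87e-05). Dlk1 stood at 5.21, 1.25 and 4.77 CPM and then at 0.392, 0.265 and 0.176 CPM (-3.74, SE 0.59), and H19, the transcript beside Igf2, fell 10.2-fold. In each of the 3, 2-day replicate 2 was the lowest of its age, yet above all 7-day libraries. Igf2bp3, a fetal RNA-binding protein, differed less, at 38.7, 25.6 and 34.2 CPM against 21.5, 25.2 and 23.4 CPM (-0.49, SE 0.15, edgeR adjusted p = 0.0182). That call was lost without 2-day replicate 1 (-0.30), 2-day replicate 3 (-0.41), 7-day replicate 1 (-0.39) or 7-day replicate 3 (-0.44). Its larger change came later, from 22.7 CPM at 14 days to 0.928 CPM at 6 weeks. The 14 falls became 8 without 2-day replicate 1, 2-day replicate 3 or 7-day replicate 1 and 9 with library totals, and rises numbered 2 without 2-day replicate 1. Stromal and endothelial markers, given below, summed to 169, 89.6 and 160 CPM in the 2-day libraries and to 125 to 136 CPM in the 7-day libraries, lowest in the same 2-day replicate, and their part in these falls was not tested.

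Transcripts of other cell types changed over the same interval. Of 17 mast cell markers 16 fell and 0 rose, with a median log2 fold change of -4.19, and their sum went from 4140 to 6780 CPM at 2 days to 653 to 857 CPM at 7 days. Tpsb2 and Tpsab1, mast cell tryptases, fell 71.5-fold and 145-fold. Tpsb2 stood at 1817, 900 and 1492 CPM and then at 16.7, 23.7 and 18.4 CPM (-6.16, SE 0.35, edgeR adjusted p = 3.84e-07). Cma1, chymase, went from 993, 547 and 986 CPM to 12.3, 17.3 and 14.96 CPM (-5.83, SE 0.31, edgeR adjusted p = 2.31e-07), and Mcpt4 from 1244, 603 and 1226 CPM to 18.2, 26.0 and 19.5 CPM (-5.59, SE 0.35). Cpa3, the mast cell carboxypeptidase, went from 773, 481 and 824 CPM to 11.8, 15.7 and 13.1 CPM. All 2-day libraries exceeded all 7-day libraries, as the rule for the largest falls required. For all of these genes 2-day replicate 2 was the lowest of its age. The serotonin genes Slc6a4 and Tph1 fell with them, at 60.1-fold and 84.6-fold. Hdc, the histamine-forming enzyme that neutrophils also make, fell least of the 16, 2.28-fold, and Mcpt1 had no call. The sum of the list includes Hdc. At 6 weeks that sum was 1640, 1460 and 1430 CPM, while Tpsb2 averaged 0.0722 CPM and Cpa3 0.762 CPM. The sum at 7 days thus cannot be read as mast cell transcripts alone. All 8 basophil markers fell, with a median of -2.92, but 4 of them are mast cell markers too. Mcpt8 and Prss34, the basophil proteases, fell by 1.49 and 1.29 on the log2 scale.

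Erythroid markers rose in 20 of 22 tested with 0 falls, at a median of 2.15. The adult globin Hbb-bs stood at 256, 178 and 242 CPM and then at 2393, 1318 and 2139 CPM (log2 fold change 3.11, SE 0.56, edgeR adjusted p = 0.000672), with all members of the globin clusters sharing reads to an unknown degree. Tfrc, the transferrin receptor, went from 51.0, 28.5 and 41.5 CPM to 146, 142 and 165 CPM (1.90, SE 0.18, edgeR adjusted p = 6.76e-06), and the factor Tal1 from 17.1, 12.1 and 12.8 CPM to 43.7, 33.3 and 40.9 CPM (1.49, SE 0.20). Every 7-day library exceeded every 2-day library for these 3. Gata1, shared with mast cells and eosinophils, had no call (0.40). The embryonic globins Hbb-bh1, Hbb-y and Hba-x had too few counts for the test.

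Macrophage genes were higher at 7 days. Of 21 monocyte and macrophage markers 15 rose and 1 fell, with a median of 1.43, and of 12 markers of red pulp macrophages, which recycle iron in the spleen, 10 rose and 1 fell, with a median of 1.93. Vcam1 went from 56.0, 56.0 and 50.4 CPM to 505, 521 and 542 CPM (log2 fold change 3.27, SE 0.37, edgeR adjusted p = 2.53e-05) and Cd5l from 4.83, 5.30 and 4.71 CPM to 53.7, 54.7 and 52.4 CPM (3.44, SE 0.28). Mertk and Adgre1 rose 8.42-fold and 4.43-fold, Adgre1, the F4/80 antigen, from 33.5, 45.9 and 30.7 CPM to 159, 167 and 162 CPM. None of these overlapped. The monocyte genes Ly6c2, Ccr2 and Cx3cr1 had no call, at -0.20, -0.26 and -0.08. Among 14 dendritic cell markers 7 rose and 2 fell, 64.3% called against 48.7% of all tested genes, with 4 rises in the 6 libraries alone. The 2 falls were Itgax, from 34, 87.1 and 37.5 CPM to 10.2, 10.5 and 9.93 CPM (-2.37, SE 0.29), and Clec10a, 6.25-fold. Without 2-day replicate 2 Itgax was at -1.78.

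Eosinophil markers rose in 7 of 11 with 1 fall, 72.7% called against 48.7% of all tested genes, and 4 rose without 2-day replicate 3. Epx, eosinophil peroxidase, spread widely at 2 days, at 16.5, 0.626 and 5.34 CPM, and stood at 38.2, 23.8 and 29.0 CPM at 7 days (log2 fold change 2.01, SE 0.69, edgeR adjusted p = 0.0297). Its call was lost without 2-day replicate 3 (1.85), 7-day replicate 1 (1.85) or 7-day replicate 3 (2.08), in the 6 libraries alone (2.03) and with DESeq2 (2.02), and without 2-day replicate 1 the value was 3.37. Prg2 went from 61.4, 11.1 and 26.4 CPM to 131, 86.8 and 96.6 CPM (1.66, SE 0.52, edgeR adjusted p = 0.0195), and lost its call without 2-day replicate 3 (1.57) or 7-day replicate 1 (1.51), and stood at 2.53 without 2-day replicate 1. Ccr3, the eotaxin receptor, was steadier, from 1.2, 1.65 and 1.26 CPM to 14.5, 17.6 and 13.6 CPM (3.48, SE 0.37), and Ear2 rose 3.14-fold. The fall was that of Siglecf.

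Lymphocyte genes rose from low levels. Among 16 markers of B cells and MHC class II, 14 rose and 1 fell, with a median of 1.04. Cr2, complement receptor 2 of mature B cells, went from 2.04, 0.922 and 1.67 CPM to 20.3, 18.8 and 20.4 CPM (log2 fold change 3.66, SE 0.34, edgeR adjusted p = 6.68e-06). Of 8 B cell precursor markers 3 rose, 37.5% called against 48.7% of all tested genes. Among them was Dntt, the terminal transferase that adds bases at joins of antigen receptor genes. It went from 0.204, 0.0329 and 0.0274 CPM to 4.97, 3.81 and 4.65 CPM (5.54, SE 0.62, edgeR adjusted p = 2.53e-05). The 2-day level of Dntt rests on 10 counts in all, most of them in replicate 1, and without that library the value was 7.13. Rag1 rose 2.48-fold, and a fall was called in the list without 14-day replicate 1. Of 20 T and NK cell markers 13 rose and 3 fell, 80% called against the same 48.7%. Cd4 went from 3.04, 1.94 and 2.30 CPM to 22.2, 17.5 and 20.8 CPM (3.05, SE 0.29, edgeR adjusted p = 6.97e-06) and Cd8a from 1.02, 0.461 and 0.959 CPM to 9.31, 6.22 and 8.25 CPM (3.26, SE 0.36). The 3 falls, Gzma, Gzmb and Klrb1c, are genes of NK and cytotoxic cells. Of 6 plasma cell markers 5 rose, Jchain from 0.434, 0 and 0.137 CPM to 4.88, 4.50 and 5.18 CPM (log2 fold change 4.54, and 6.02 without 2-day replicate 1).

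Of 15 stromal and endothelial markers 6 fell and 1 rose, 46.7% called against 48.7% of all tested genes. The fibroblast genes Col1a1, Col3a1 and Dcn fell, Col1a1 from 32.7, 17.8 and 32.1 CPM to 6.03, 7.54 and 6.56 CPM (log2 fold change -2.04, SE 0.36, edgeR adjusted p = 0.000657). Stab2, a scavenger receptor of sinus endothelium, rose from 8.35, 3.23 and 5.70 CPM to 32.0, 30.8 and 29.7 CPM (2.41, SE 0.42), and rises numbered 6 without 2-day replicate 1. Megakaryocyte and platelet markers stayed mostly without a call, 8 of 10, with Itga2b 3.12-fold lower and Ppbp 3.40-fold higher, and rises numbered 3 without 2-day replicate 2 and 2 without 14-day replicate 2. Mast cell, erythroid, macrophage and lymphocyte markers thus moved with the neutrophil genes in the same 6 libraries, and their part in the changes of genes that several cell types share was not tested. The sorted marker Ly6g differed by less than these, at 93.7 ± 18.4 CPM (SD, n = 3) and 103 ± 11 CPM (SD, n = 3).

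**Figure D4:**
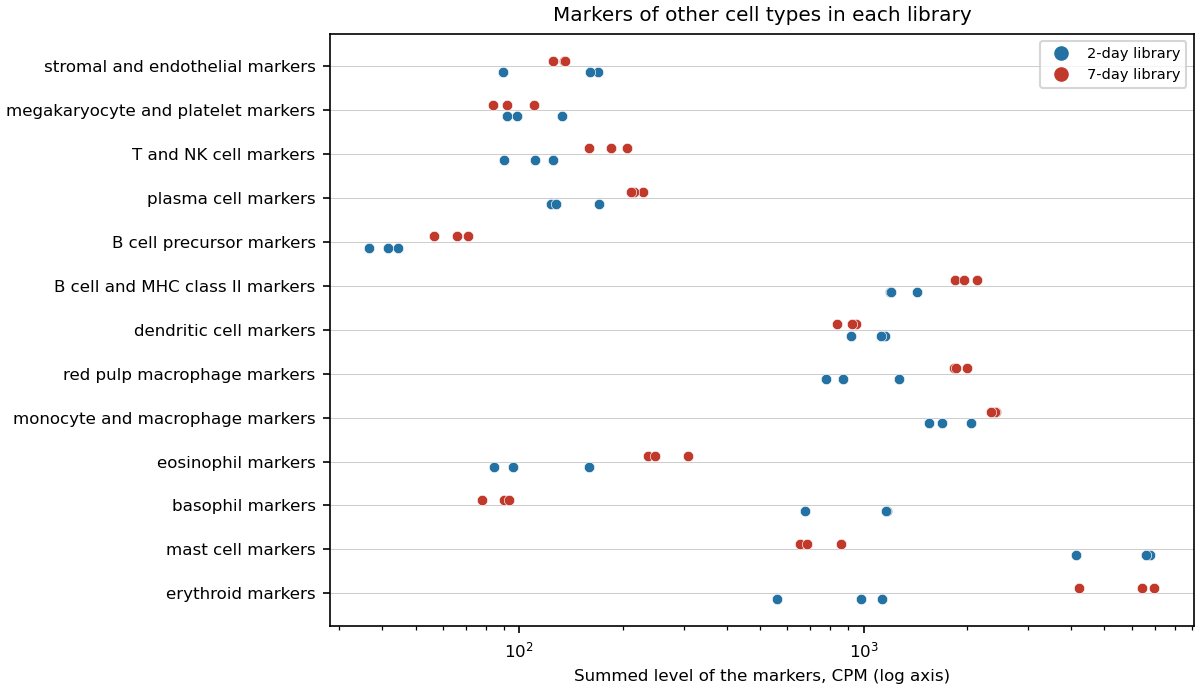
Summed level in CPM, on a log axis, of the markers of 13 other cell types in each 2-day and 7-day library. Mast cell markers lie at 4140 to 6780 CPM at 2 days and 653 to 857 CPM at 7 days, erythroid markers at 561 to 1130 CPM and 4220 to 6990 CPM. The mast cell sum includes Hdc, which neutrophils also make.

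**Figure D5:**
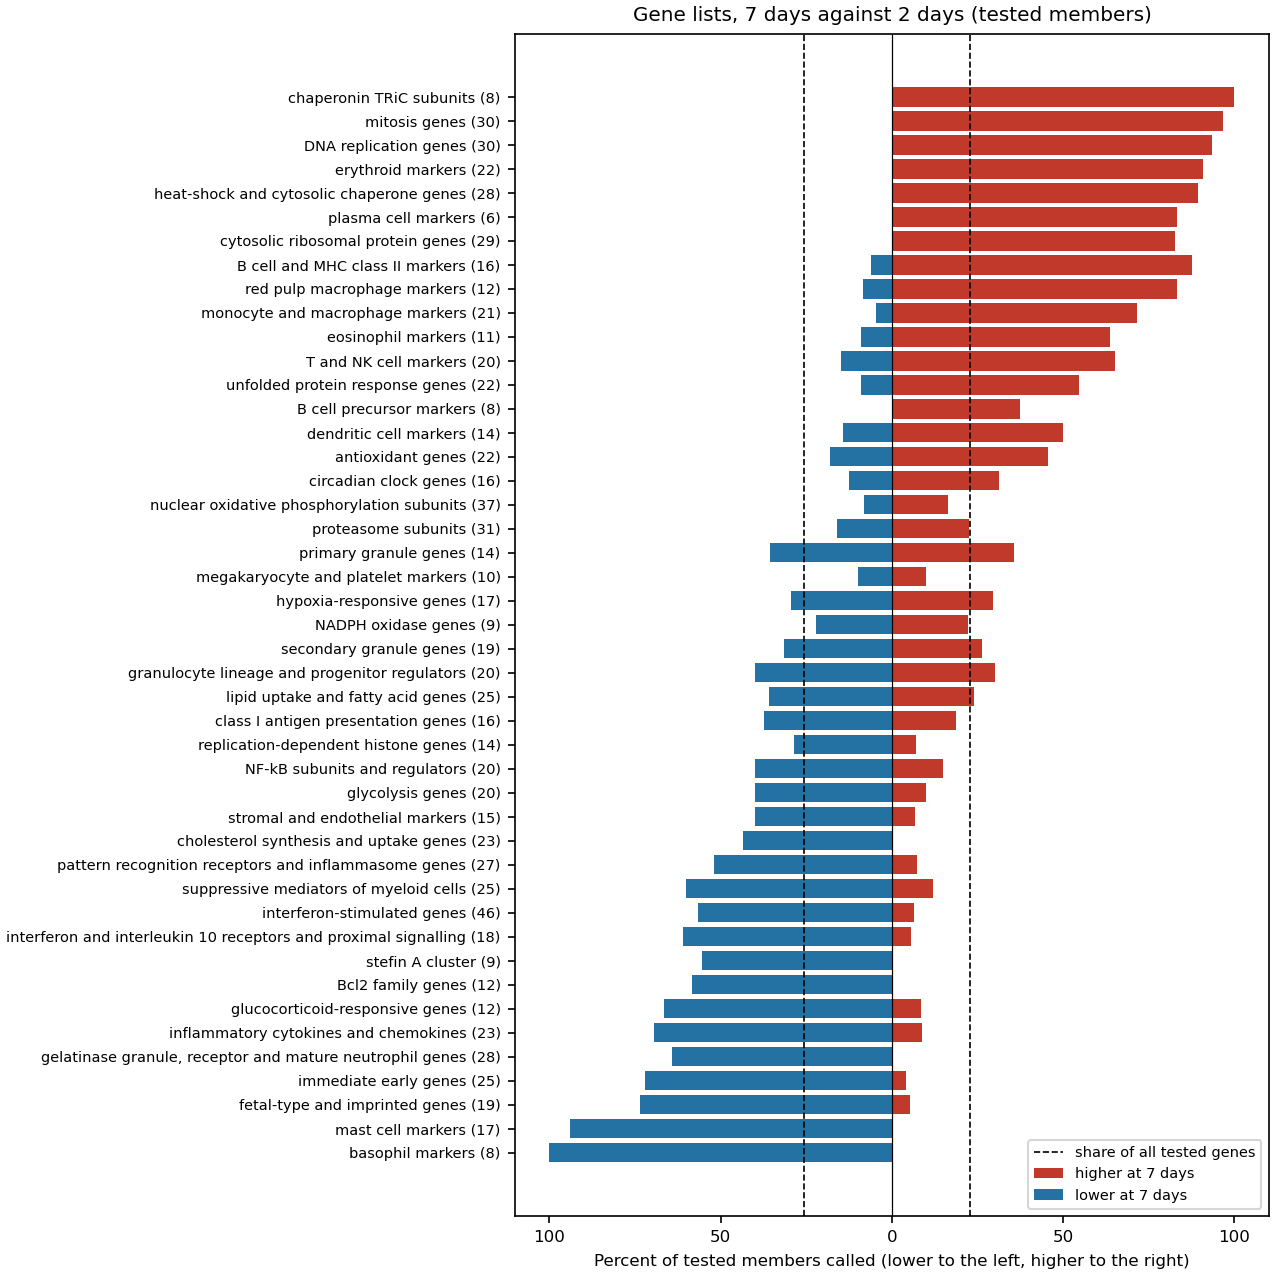
Percent of the tested members of each gene list that rose (right) or fell (left), with the number tested in brackets and dashed lines at the shares of all tested genes, 22.9% and 25.8%. All 8 TRiC subunits rose, all 8 basophil markers fell, and 7 of 31 proteasome subunits rose.

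The change of the first week was also set against the only other pair of ages that shares no library with it, 14 days and 6 weeks. In edgeR's test of the difference between the 2 changes, 5187 of 15312 genes with counts at all 4 ages (33.9%) were called, 2380 with the first-week change more positive and 2807 more negative. Of the genes called in the first week, 1870 rose and were more positive, and 2360 fell and were more negative. The first-week change enters both tests, so such agreement is partly built in, also for the lists below. Among heat-shock and cytosolic chaperone genes 24 of 28 were more positive and 0 more negative. Hspa1a had a difference of 7.18 (SE 0.54, edgeR adjusted p = 5.16e-06), as it rose by 2.52 on the log2 scale between 14 days and 6 weeks and by 9.69 in the first week. All 8 TRiC subunits, 29 of 30 replication genes and all 30 mitosis genes were more positive too. Mki67 fell by 1.10 on the log2 scale between 14 days and 6 weeks, a difference of 3.08 (SE 0.23, edgeR adjusted p = 4.89e-06).

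Interferon genes showed the reverse. Of 46 interferon-stimulated genes 37 were more negative in the first week and 0 more positive, and 13 of 18 genes of receptors and proximal signalling were more negative. Ifit3 rose by 2.76 on the log2 scale from 14 days to 6 weeks, where it had fallen by 3.51 in the first week, a difference of -6.27 (SE 0.50, edgeR adjusted p = 7.02e-06). Irf7 differed by -3.03 (SE 0.23), and mature neutrophil genes were more negative in 16 of 28, Csf3r by -2.23 (SE 0.50, edgeR adjusted p = 0.00476). The largest differences by the rule were those of Epx (7.69), Hspa1a and Prg2 (6.53) on the positive side, and Cma1 (-8.61), Lipg (-8.30) and Wfdc17 (-6.49) on the negative side. Epx and Prg2 fell by 5.68 and 4.86 on the log2 scale from 14 days to 6 weeks, beside first-week rises of 2.01 and 1.66. Their means at 6 weeks were 0.245 and 1.88 CPM. Cma1, Lipg and Wfdc17 rose by 2.79, 2.74 and 3.54 from 14 days to 6 weeks. For Cma1 that was from a mean of 0.299 CPM to 2.07 CPM, beside 842 CPM at 2 days. Immediate early genes were split, 10 more negative and 7 more positive. Egr2 fell by 2.48 and by 2.29 on the log2 scale, and the difference of -0.19 had an SE of 0.24 (edgeR adjusted p = 0.581), while for Fos it was -2.10 (SE 0.33, edgeR adjusted p = 0.000517). Stefin A genes were more positive in 6 of 9, and Stfa2 fell by 4.43 on the log2 scale between 14 days and 6 weeks.

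Y-linked transcripts were present at both ages, with 3051 to 3299 counts of Ddx3y, Eif2s3y, Kdm5d and Uty in the 2-day libraries and 1816, 2525 and 4010 counts in 7-day replicates 1, 2 and 3. Ddx3y stood at 29.5, 36.6 and 37.0 CPM and then at 24.8, 32.8 and 50.03 CPM (log2 fold change 0.06, SE 0.24). Xist, which is transcribed in female cells, stood at 183, 159 and 207 CPM and then at 309, 441 and 187 CPM (0.77, SE 0.27, edgeR adjusted p = 0.0291). Its call was lost without 2-day replicate 2 (0.70), 7-day replicate 1 (0.83) or 7-day replicate 2 (0.45), and in the 6 libraries alone (0.80). Of the 7-day libraries, replicate 3 had the most Y-linked counts and the least Xist. None of the 2-day or 7-day libraries lacked either kind of transcript, whereas the 14-day and 6-week libraries held 0 or 1 Y-linked count each. Levels at 2 or 7 days set against those at 14 days or 6 weeks thus cannot tell age from the presence of Y-linked transcripts. In the test against the later interval, a difference tied to those transcripts cancels if it is the same at both ages of an interval. A difference that changes with age does not cancel, and this was not tested.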

How the data were processed

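Polyadenylated RNA of Ly6G+ spleen cells was sequenced by the authors in 3 libraries at each of 4 ages, per the labels. The deposited table holds whole-number counts for 38887 gene identifiers. RSEM 1.2.3, DESeq2 and the build mm10 are named in the submitters' processing notes, with no role or order, so the counts may be rounded RSEM estimates, and strand is not given in the sources used here. Of the identifiers, 37570 matched GENCODE M21 symbols.

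All 12 libraries were fitted with edgeR 4.0.16 (R 4.3.3) with age as the only term, TMM scaling, a filter at a minimum count of 10, and Benjamini-Hochberg adjustment over all tested genes at 0.05. The first-week change was also tested against the change from 14 days to 6 weeks, over genes with counts at all 4 ages. Same-numbered libraries of the 2 ages deviated together across genes (r = 0.344, 0.37 and 0.122). However, 2-day replicate 1 and 7-day replicate 3 reached 0.151, and same-numbered 2-day and 14-day libraries gave -0.394, -0.24 and -0.046. Whether the numbers pair the libraries is thus not settled. The reported fit has no pairing term, and a replicate block was fitted as an alternative. In simulated counts of 15002 genes, 50 genes were changed at each size in each direction and all others left unchanged. There the test of 7 days against 2 days recovered 98% of 4-fold falls, 92% of 4-fold rises, and 62% of 2-fold changes each way. In the data 7546 of 15494 genes were called, so these rates may not hold for them.

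Alternatives were DESeq2 1.42.0, limma-voom (limma 3.58.1), library totals, no filter, a replicate block, the 6 libraries alone and leaving out each library. Named genes were the 8 largest changes each way among called genes of at least 20 CPM whose libraries did not overlap, the 2 called members with the smallest p in each list, a fixed set of genes, and the 3 largest differences each way in the second test. Members and lists were chosen with earlier results of these data known, and other list members were named after their values were seen. Mitochondrially encoded genes were not analysed here. Some genes of the lists are not reported here. Promoter windows are from RefSeq tables of GRCm38.p6. Figures were drawn with matplotlib 3.10.9.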

Additional observations from a re-analysis of the deposited data

How the results depend on the processing

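The whole-table counts stayed within 1.5 times the reported value under each of the 18 alternatives. Against 7546 called genes, DESeq2 called 7926, library totals 7125, no filter 7295, limma-voom 7710 and the 6 libraries alone 6285. With the replicate block, 7071 genes were called, 3367 higher and 3704 lower, and the second test called 4608. The block changed no call of a named gene, and it moved list counts by over 1.5 times only for pattern recognition receptors (2 rises to 1), megakaryocyte markers (1 rise to 2) and sex-linked genes (0 falls to 1). Leaving out 1 library gave 6077 to 8129 calls, 3059 to 4088 higher and 2979 to 4192 lower, and 4082 to 6095 in the second test. Between 5925 and 7489 of the reported calls were shared with an alternative. Of 121 named genes with a call, 112 kept direction and call under all 18, and the 9 that did not are Epx, Prg2, Nos2, Ltf, Cxcr2, Cebpe, Igf2bp3, Xist and Psmb2. Psmb2 lost its call with library totals (-0.36), as did Igf2bp3 (-0.37), which lost it with no filter too (-0.44). No called named gene changed sign. Among named genes with no call, 3 did: Mpo, from -0.27 to 0.34 without 2-day replicate 1, S100a9, from -0.19 to 0.08 without 2-day replicate 2, and Ddx3y, from 0.06 to -0.20 without 7-day replicate 3. The cause of these changes was not tested.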
